A study of Mus musculus with 6 samples.

Results

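Anti-Müllerian hormone (AMH), the receptors through which cumulus cells sense AMH and the oocyte's growth factors, and the SMAD proteins those receptors switch on were followed as a set of 10 genes among 22180 tested. They were chosen by name, with earlier results of these data known. They include the ligand gene Amh and the type 2 receptor genes Amhr2 and Bmpr2. The type 1 receptor genes are Acvr1, Bmpr1a, Bmpr1b and Tgfbr1, and the receptor SMAD genes are Smad1, Smad3 and Smad9. All 10 were measured, each by a single probe set naming that gene alone, and none was removed by a filter.

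The RNA came from cumulus-oocyte complexes (COCs), oocytes of large antral follicles with the cumulus cells around them, taken from wildtype mice 46 h after priming with eCG (equine chorionic gonadotropin, 5 IU). The labels give the females as 21 days old in the growth protocol and 23 days old elsewhere. Groups of 100 COCs were cultured with DMSO, the vehicle (3 samples), or with 5 µM Torin1, a kinase inhibitor of MTOR (3 samples), for 14 h or 16 h depending on the label. The medium of both groups had bovine serum albumin at 3 mg/ml and milrinone, a phosphodiesterase inhibitor that holds oocytes at the germinal vesicle stage, at 5 µM, so control and treated oocytes alike were kept from maturing. COCs pooled for a sample may share mice, and nothing says that samples came from separate mice or days, so p-values measure only how far these samples spread, possibly for technical reasons.

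AMH and the bone morphogenetic proteins (BMPs) belong to the TGF-beta family. Such a ligand brings together type 2 and type 1 receptors, both serine/threonine kinases. The type 2 receptor phosphorylates the type 1 receptor, which phosphorylates receptor SMADs, and these enter the nucleus with SMAD4. AMHR2 is the type 2 receptor dedicated to AMH and signals through ACVR1, BMPR1A or BMPR1B to SMAD1, SMAD5 and SMAD9. The oocyte protein BMP15 uses BMPR2 with BMPR1B, and GDF9 uses BMPR2 with TGFBR1 and reaches SMAD2 and SMAD3. In the follicle, AMH is made by granulosa cells, and cumulus cells next to the oocyte keep expressing it.

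The hormone gene and its own receptor gene fell with Torin1, and the other receptors and SMADs shifted in both directions. Amhr2 fell 16.0-fold and Amh 2.25-fold on the log2(intensity + 1) scale. Acvr1, Tgfbr1, Smad1 and Smad3 rose by 0.45 to 0.75 log2 units, Bmpr1b and Smad9 fell by 0.59 and 0.48, and Bmpr2 and Bmpr1a were not called. A gene was called at an adjusted p below 0.05 in limma, with Benjamini-Hochberg adjustment over all 22180 genes. Of the 10 genes 4 were called higher, where 5.13% of all genes were, and 4 lower, where 6.94% of all genes were, against 12.1% called in either direction. The values of the 3 DMSO and 3 Torin1 samples did not overlap for 8 of the 10, against 28.6% of all genes. The median absolute log2 change was 0.54 over the 10 genes and 0.11 over all genes, and the signed medians were 0.066 and 0.010. Because the 10 genes were chosen with earlier results of these data known, these contrasts with all genes are a description and not a test.

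The counts rested on all 6 arrays. With 1 sample left out, the genes called higher numbered 0 without DMSO 1 or DMSO 3, 1 without DMSO 2 and 2 without any of the Torin1 samples. Those called lower numbered 3 without DMSO 3 or Torin1 3 and 2 in each of the other 4 leave-outs. Amh and Amhr2 were the members called in every one of these.

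**Figure D1:**
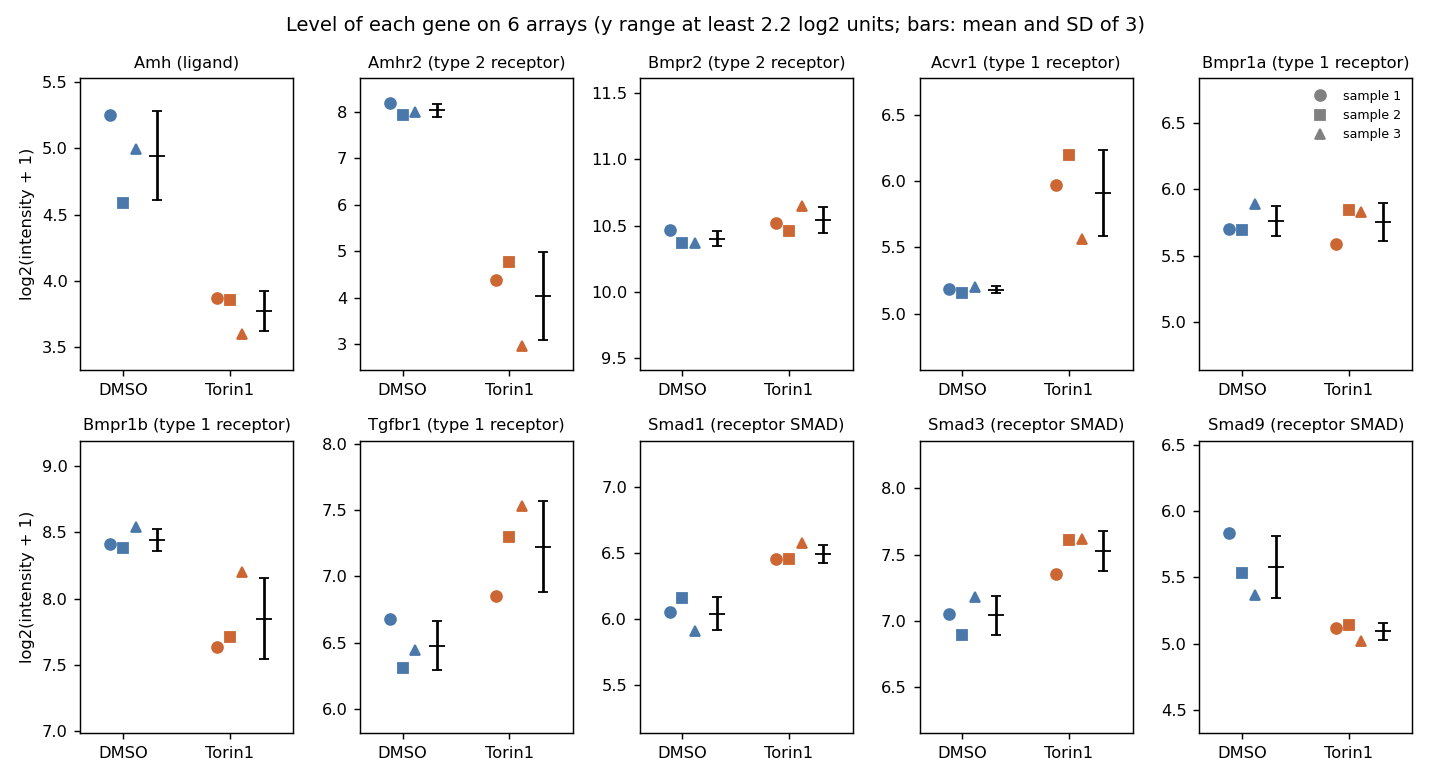
Level of each of the 10 genes on the 6 arrays, as log2(intensity + 1), with 1 panel a gene and a separate y range in each; points are samples, with a marker shape for each sample number, and black bars give the mean and SD of 3. Amhr2 stands at 7.92 to 8.19 in DMSO and 2.96 to 4.76 in Torin1, while the groups overlap for Bmpr2 and Bmpr1a.

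The arrays carried 41345 probe sets with median intensities of 11.1 to 11.97. Torin1 3 stood apart from the other Torin1 samples: over genes, the SD of log2 differences was 0.327 and 0.350 between it and Torin1 1 and 2, against 0.204 between these 2 and 0.212 to 0.240 among DMSO samples. Results without Torin1 3 are therefore given with each gene. Its description repeats the short name of sample 2, yet the values of the 2 arrays differ.

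The ligand gene Amh fell with Torin1. Its intensities were 37.1, 23.0 and 31.0 in DMSO samples 1 to 3 and 13.6, 13.5 and 11.1 in Torin1 samples 1 to 3. All DMSO values lay above all Torin1 values, and DMSO 2 was the lowest of the controls. The log2 mean went from 4.94 ± 0.34 to 3.77 ± 0.15 (SD, n = 3 each), a change of -1.17 ± 0.17 (SE; adjusted p = 0.00616). The Torin1 mean lay under the median gene, 4.17, so the size of the fall is uncertain, and with a pseudocount of 16 it was -0.68 (adjusted p = 0.0237). Without Torin1 3 the change was -1.08 (adjusted p = 0.0107), and over the 6 leave-outs it ran from -1.35 to -1.02.

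Amhr2, the gene of the AMH type 2 receptor, fell most of the 10. Its intensities were 291, 241 and 253 in DMSO samples 1 to 3 and 20.0, 26.1 and 6.80 in Torin1 samples 1 to 3. The groups lay far apart, and Torin1 3 was the lowest array, at -1.61 log2 units from the mean of the other Torin1 samples. The log2 mean went from 8.03 ± 0.14 to 4.04 ± 0.95 (SD, n = 3 each), and the change was -4.00 ± 0.42 (SE; 95% interval -4.992 to -3.001; adjusted p = 0.00162). It was the largest fall among the 22180 genes in this fit, and over the alternative settings and leave-outs it ranked from 1 to 4. Without Torin1 3 the fall was smaller, at -3.46, with an adjusted p of 4.935e-05. The Torin1 mean was just under the median gene, 4.17, which leaves the size of the fall uncertain, and with a pseudocount of 16 it was smaller, at -3.09 (adjusted p = 0.00234).

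In bulk COC RNA, fewer cells of a type and less RNA per cell cannot be told apart. The 8 cumulus and granulosa markers, of which Amhr2 is one, were all called lower, where 6.94% of all genes were. Of these, Nr5a2 lost the call in 5 of 6 leave-outs, Inha in 3 and Gja1 in 2. Without Amhr2, the summed intensity of the other 7 ran from 5760 to 6015 in DMSO and from 3147 to 3615 in Torin1, none was at 0, and the lowest single value was 29.3. This sum weighs the brightest markers most. The falls of the 7 were uneven, with log2 changes from -0.375 for Gja1 and -0.417 for Inha to -2.777 for Fshr. The 10 oocyte markers summed to 4477 to 4765 in DMSO and 4977 to 5422 in Torin1, with Dppa3 and Figla called higher and 8 not called. Dppa3 lost that call in all 6 leave-outs (adjusted p from 0.0605 to 0.118) and Figla in 4 of 6. The part of these shifts in the falls of Amh and Amhr2 was not tested.

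Markers of other cell types were called too, beside 12.1% of all genes, and those called are named here after their values were seen. Of 8 theca and stroma markers Ptch1, Gli1 and Pdgfra fell and 5 were not called, and the summed intensity went from 292 to 360.4 in DMSO to 146 to 173 in Torin1. Of 5 endothelial markers Cdh5 rose and 4 were not called, with sums of 91.3 to 98.4 and 139 to 259. Of 6 leukocyte markers Cd68 rose and 5 were not called, with sums of 61.3 to 66.7 and 73.2 to 77.6. Of 4 measured mural granulosa markers Star rose and 3 were not called, and their sums overlapped, at 44.6 to 57.5 and 49.0 to 53.6. Star was dim, with log2 means of 3.68 (DMSO) and 4.18 (Torin1) beside 4.17 for the median gene. The 1 measured erythroid marker was not called (11.1 to 12.6 and 11.9 to 13.7). Gli1 lost its call without DMSO 2, and Cd68 without any of the DMSO samples or Torin1 1. These sums too weigh the brightest markers most. Cdh5 went from a log2 mean of 4.10 in DMSO to 6.43 in Torin1, and Ptch1 from 7.58 to 6.05, so each weighs heavily in its sum. No marker of these lists was at 0, and the part of these lists in the results was not tested.

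The sequence before the Amhr2 start is shown because Amhr2 changed most. The 250 bases before the start, from RefSeq on GRCm38.p6, lie at chr15:102445117-102445366 on the plus strand. Capitals mark the one match to AAGGTCA, the motif bound by NR5A nuclear receptors.
Amhr2: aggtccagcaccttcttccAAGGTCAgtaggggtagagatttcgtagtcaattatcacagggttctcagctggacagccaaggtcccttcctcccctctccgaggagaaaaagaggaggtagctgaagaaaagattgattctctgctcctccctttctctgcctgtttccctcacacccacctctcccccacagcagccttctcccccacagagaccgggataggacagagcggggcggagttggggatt
The match runs from 231 to 225 bases before the start on the strand of the gene. AAGGTCA was searched on both strands of 32851 such windows, and 4.08% held it. Nr5a1, which encodes such a receptor (steroidogenic factor 1), had log2 means of 5.91 ± 0.10 (DMSO) and 5.92 ± 0.17 (Torin1), each from 3 arrays with the SD (adjusted p = 0.991). Nr5a2, the gene of the other NR5A receptor (liver receptor homolog 1) and one of the cumulus and granulosa markers, went from 8.87 ± 0.08 to 7.66 ± 0.54, a change of -1.22 ± 0.24 (SE; adjusted p = 0.0203). It was called without Torin1 3 (-1.53, adjusted p = 0.000131) but lost the call in each of the other 5 leave-outs (adjusted p from 0.0598 to 0.0806). A match is a description of letters and does not show binding.

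Genes whose pattern over the 6 arrays lay nearest to Amhr2 were found by Euclidean distance between log2 values centred per gene. In order they were Gstm2 (distance 0.642), Atp1b2 (0.661), Slc18a2 (1.15), Gm2a (1.38) and Fam78a (1.62). For Gstm2, a glutathione transferase gene, the log2 values were 7.24, 7.38 and 7.62 in DMSO and 4.15, 4.20 and 2.82 in Torin1. Like Amhr2, each of the 5 was lowest in Torin1 3, which choosing genes by closeness to Amhr2 on these same arrays favours. Nearest to Amh were Lrrc39 (0.235), Kcnk1 (0.241), Srl (0.255), Psmb9 (0.259) and Zdhhc15 (0.260). The 6 points share 1 treatment split, so this likeness is mostly that of the size of the change.

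Bmpr2, the type 2 receptor gene for BMP15 and GDF9, was not called. Its intensities were 1418, 1323 and 1323 in DMSO samples 1 to 3 and 1465, 1409 and 1607 in Torin1 samples 1 to 3. The ranges overlapped slightly, with Torin1 3 the highest. The log2 change was 0.14 ± 0.08 (SE; 95% interval -0.052 to 0.33; adjusted p = 0.382), so a rise of up to 0.33 remains within the interval. Without Torin1 3 the change was 0.086 (adjusted p = 0.641). A second probe set lists Bmpr2 together with another gene and was not used.

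Of the type 2 receptor genes, Amhr2 was called lower and Bmpr2 was not called. The log2 difference of Bmpr2 minus Amhr2 was 2.28, 2.45 and 2.38 in DMSO and 6.13, 5.70 and 7.69 in Torin1. An exact two-sided permutation test gave p = 0.1, the smallest that 20 splits of 3 against 3 allow. The same test was run for 3 pairs chosen after their values were seen, and p adjusted over the pairs was 0.1 for each. With that choice and that lowest possible p, the test cannot show that the genes of a pair differ. The shift in Bmpr2 minus Amhr2 mostly restates the change of Amhr2 (-4.00), as that of Bmpr2 was 0.14.

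The type 1 receptor genes split: Acvr1 and Tgfbr1 rose, Bmpr1b fell and Bmpr1a was not called. ACVR1 is a type 1 receptor for BMPs and AMH. Acvr1 intensities were 35.3, 34.6 and 35.8 in DMSO samples 1 to 3 and 61.8, 72.2 and 46.2 in Torin1 samples 1 to 3. The controls were tight, and Torin1 3 showed the smallest rise. The change was 0.73 ± 0.15 (SE; 1.66-fold; adjusted p = 0.0245), from 5.18 ± 0.03 to 5.91 ± 0.32 (SD, n = 3 each). Without Torin1 3 it was 0.90 (adjusted p = 0.0014). Leaving out any of the DMSO samples ended the call (adjusted p = 0.0780, 0.0825 and 0.0819), as did leaving out Torin1 1 (0.0806) and a pseudocount of 16 (change 0.56, adjusted p = 0.0529).

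Tgfbr1 encodes the type 1 receptor of TGF-beta ligands and of GDF9. Its intensities were 102, 78.5 and 86.0 in DMSO samples 1 to 3 and 115, 156 and 184 in Torin1 samples 1 to 3. Torin1 1 lay close above DMSO 1, and Torin1 3 was the highest array. The log2 mean went from 6.48 ± 0.19 to 7.23 ± 0.34 (SD, n = 3 each), a change of 0.75 ± 0.18 (SE; 1.68-fold; adjusted p = 0.0402). Leaving out any of the DMSO samples ended the call (adjusted p = 0.0620, 0.129 and 0.128), as did leaving out Torin1 2 or 3 (0.112 and 0.0588), and without Torin1 3 the change was 0.59. It was also lost with a pseudocount of 16 (adjusted p = 0.0762), array quality weights (0.0508) and Torin1 2 and 3 taken as 1 sample (0.0692).

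Bmpr1b, whose product pairs with BMPR2 for BMP15 and is needed for normal cumulus expansion in mice, fell. Its intensities were 339.8, 332 and 371 in DMSO samples 1 to 3 and 198, 209 and 293 in Torin1 samples 1 to 3. The groups did not overlap, and Torin1 3 was nearest to the controls. The log2 mean went from 8.44 ± 0.08 to 7.85 ± 0.30 (SD, n = 3 each), a change of -0.59 ± 0.15 (SE; 1.51-fold lower; adjusted p = 0.0482). Without Torin1 3 the change was -0.77 (adjusted p = 0.0021). It was no longer called when any of the DMSO samples (adjusted p = 0.123, 0.107 and 0.157) or Torin1 1 or 2 (0.130 and 0.135) was left out, with a pseudocount of 16 (0.0774) and with each array centred on its median (0.0627).

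Bmpr1a encodes a BMP type 1 receptor closely related to BMPR1B. Its intensities were 50.9, 50.7 and 58.2 in DMSO samples 1 to 3 and 47.0, 56.4 and 55.7 in Torin1 samples 1 to 3. The groups overlapped, with Torin1 1 the lowest and DMSO 3 the highest. The log2 change was -0.0081 ± 0.10 (SE; 95% interval -0.25 to 0.23; adjusted p = 0.982), and its sign turned with median centring, with quantile normalization and without DMSO 3 or Torin1 1 (0.015, 0.036, 0.056 and 0.075). Without Torin1 3 it was -0.046 (adjusted p = 0.893). The log2 difference of Bmpr1b minus Bmpr1a went from 2.68 ± 0.033 in DMSO to 2.10 ± 0.25 in Torin1 (SD, n = 3 each; exact two-sided permutation p = 0.1, the smallest possible). On each Torin1 array that difference, 2.05, 1.87 and 2.37, lay under all 3 DMSO values. This pair too was chosen after its values were seen.

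**Figure D2:**
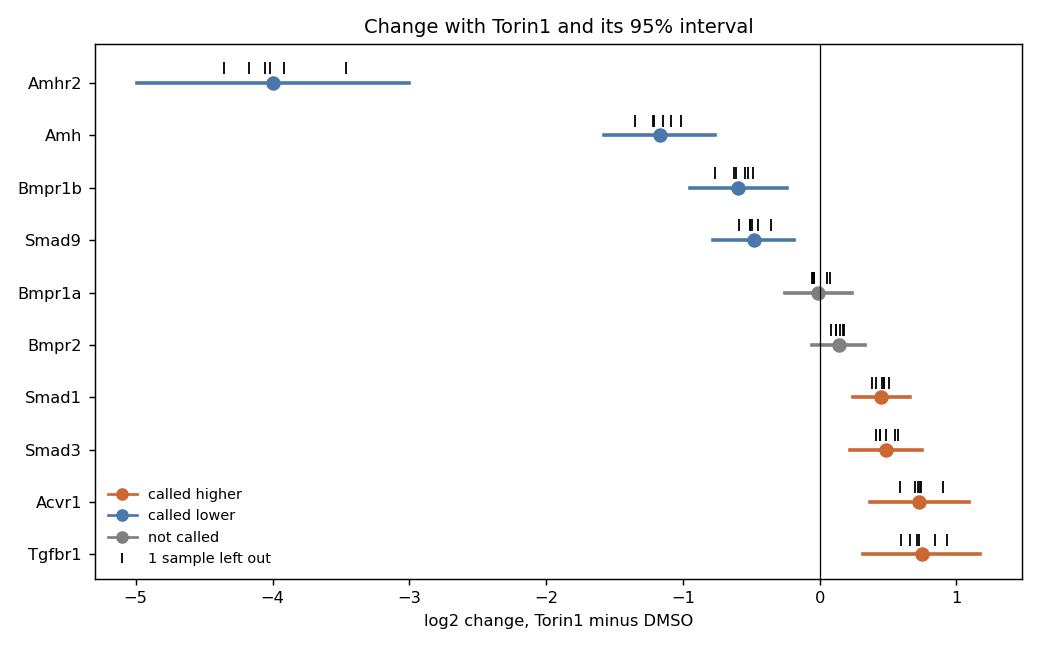
Log2 change of each of the 10 genes, Torin1 minus DMSO (points), with its 95% interval from limma (bars); the short black ticks above each bar are the changes with 1 of the 6 samples left out. Amhr2 lies at -4.00 and Amh at -1.17, the other called genes lie between -0.59 and 0.75, and the intervals of Bmpr1a and Bmpr2 cross 0.

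The receptor SMAD genes also went both ways. SMAD1 and SMAD9 carry AMH and BMP signals, and SMAD3 those of TGF-beta, activin and GDF9. Smad1 intensities were 65.6, 70.3 and 59.3 in DMSO samples 1 to 3 and 86.5, 86.8 and 94.1 in Torin1 samples 1 to 3. The Torin1 values were close together and all above the controls. The change was 0.45 ± 0.09 (SE; 1.37-fold; adjusted p = 0.0187), from 6.04 ± 0.12 to 6.49 ± 0.07 (SD, n = 3 each). Without Torin1 3 it was 0.41 (adjusted p = 0.0349), and the call was lost without DMSO 1, DMSO 3 or Torin1 1 (adjusted p = 0.0617, 0.0688 and 0.0516).

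Smad3 intensities were 132, 118 and 144 in DMSO samples 1 to 3 and 162, 194 and 196 in Torin1 samples 1 to 3. Torin1 1 was nearest to the controls, but no values overlapped. The log2 mean rose from 7.04 ± 0.14 to 7.53 ± 0.15 (SD, n = 3 each), a change of 0.48 ± 0.11 (SE; 1.40-fold; adjusted p = 0.0333). It was no longer called when any of the DMSO samples (adjusted p = 0.0982, 0.101 and 0.0537) or Torin1 2 or 3 (0.101 and 0.0629) was left out, and without Torin1 3 the change was 0.44. With Torin1 2 and 3 taken as 1 sample it was lost too (adjusted p = 0.0660).

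Smad9 intensities were 55.9, 45.2 and 40.3 in DMSO samples 1 to 3 and 33.7, 34.2 and 31.5 in Torin1 samples 1 to 3. The controls spread widely, and the Torin1 values lay together below them. The change was -0.48 ± 0.12 (SE; 1.40-fold lower; adjusted p = 0.0490), from 5.58 ± 0.24 to 5.09 ± 0.06 (SD, n = 3 each). This was the least firm of the called genes: it lost the call in 12 of 15 alternatives, among them all leave-outs but that of DMSO 3 (adjusted p = 0.0907, 0.110, 0.113, 0.100 and 0.0897 without DMSO 1, DMSO 2, Torin1 1, Torin1 2 and Torin1 3). Without DMSO 1, its highest array, the change was -0.36, and without Torin1 3 it was -0.45. The log2 difference of Smad1 minus Smad9 was 0.23, 0.63 and 0.55 in DMSO and 1.34, 1.32 and 1.55 in Torin1, without overlap (exact two-sided permutation p = 0.1, the smallest possible). As this pair was chosen after its values were seen, the lack of overlap is a description.

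**Figure D3:**
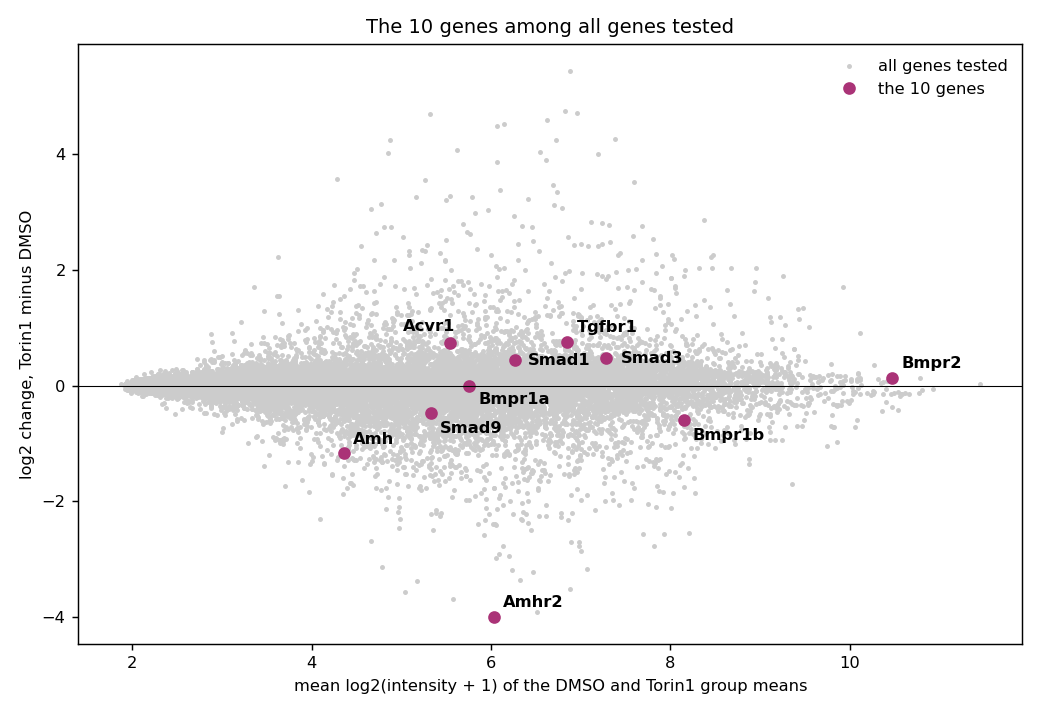
Log2 change, Torin1 minus DMSO, of every gene tested (grey, 1 point a gene) against the mean of its DMSO and Torin1 group means in log2(intensity + 1), with the 10 genes named. Amhr2 is the lowest point of the cloud, at -4.00, and the other 9 lie between -1.17 and 0.75.

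Torin1 3, the array that stood apart, was not displaced in 1 direction over the 10 genes. Against the mean of Torin1 1 and 2 it was lower for Amhr2 (-1.61 log2 units), Acvr1 (-0.52), Amh (-0.26) and Smad9 (-0.11). It was higher for Bmpr1b (0.52), Tgfbr1 (0.45), Bmpr2 (0.16), Smad3 (0.14), Smad1 (0.12) and Bmpr1a (0.11). Thus it was further from DMSO than the other Torin1 samples for Amhr2, Amh, Tgfbr1, Smad1, Smad3, Smad9 and Bmpr2, and nearer to it for Acvr1 and Bmpr1b.

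Sequence composition before the start differed among the genes. Of the 10 genes 9 had windows of 250 bases in the RefSeq table of GRCm38.p6, 12 in all, because Bmpr1b has 3 starts and Tgfbr1 has 2. The Amhr2 window held 5 CpG dinucleotides and those of Bmpr1b held 1, 5 and 5, where the median of all 32851 windows was 6. Smad9, which fell as well, had 24. Among genes that rose, the windows of Acvr1, Smad1 and Smad3 held 46, 25 and 22, and those of Tgfbr1 held 29 and 3. Bmpr1a and Bmpr2 had 36 and 22. This is a description of few genes, with no test.

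The CpG-poor window of Bmpr1b, at its first start in the table (chr3:141982265-141982514, minus strand), is printed beside the CpG-rich window of Acvr1 (chr2:58566829-58567078, minus strand), both from GRCm38.p6, as type 1 receptor genes that moved in opposite directions. Of the 12 windows of these genes, these had the fewest and the most CpG. Smad9, which fell, had 24, and a window of Tgfbr1, which rose, had 3. Capitals mark CpG dinucleotides.
Bmpr1b: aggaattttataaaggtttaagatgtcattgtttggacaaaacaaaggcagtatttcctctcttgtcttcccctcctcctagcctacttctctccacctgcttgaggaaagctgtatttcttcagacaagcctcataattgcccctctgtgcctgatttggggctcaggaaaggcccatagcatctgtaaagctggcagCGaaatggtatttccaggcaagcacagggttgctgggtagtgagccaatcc
Acvr1: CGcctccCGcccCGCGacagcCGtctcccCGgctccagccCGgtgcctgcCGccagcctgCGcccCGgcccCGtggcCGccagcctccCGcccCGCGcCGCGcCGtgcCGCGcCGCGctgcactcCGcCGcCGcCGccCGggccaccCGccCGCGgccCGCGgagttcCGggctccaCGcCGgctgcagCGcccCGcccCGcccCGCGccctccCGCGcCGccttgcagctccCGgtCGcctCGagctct
The GC content of these windows was 46.8% and 85.6%, and the median over all windows was 52.4%. Further motifs were searched on both strands. AGATAA, bound by zinc finger factors of the GATA4 family, occurs in 9.99% of all windows. The forkhead motif GTAAACA occurs in 3.17%, and the E-box CACGTG in 6.02%. GTCTAGAC, a palindrome bound by SMAD3 and SMAD4, occurs in 0.167%. None of the 12 windows of these genes held any of these 4.

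Among other ligands of the family, the oocyte's GDF9 and BMP15 genes were not called, while TGF-beta and activin genes were called in both directions. Of the 13 ligand genes, all measured, 2 were called higher, 3 lower and 8 neither, with a median log2 change of 0.17, beside 0.010 over all genes, of which 5.13% were called higher and 6.94% lower. Gdf9 had log2 means of 8.62 ± 0.09 (DMSO) and 8.74 ± 0.12 (Torin1), a difference of 0.12 ± 0.09 (SE; adjusted p = 0.512). Bmp15 had means of 9.81 ± 0.07 and 9.97 ± 0.14, a difference of 0.17 ± 0.09 (SE; adjusted p = 0.364). Tgfb1 rose by 1.90 ± 0.36 and Tgfb3 fell by 1.98 ± 0.18 (SE). These encode ligands that signal through TGFBR1.

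The activin and inhibin subunit genes divided as well. Inhba rose by 2.06 ± 0.21, while Inhbb and Inha fell by 1.85 ± 0.43 and 0.42 ± 0.08 (SE). Tgfb3 and Inhba were called in every leave-out. Tgfb1 lost its call on leaving out any DMSO sample or Torin1 1, with adjusted p at most 0.0602. Inhbb lost it on leaving out DMSO 2 or 3 or Torin1 2 (at most 0.120), and Inha on leaving out DMSO 1 or Torin1 1 or 2 (at most 0.0572). Bmp2, not called in the full set, was called without Torin1 3, at -1.38 (adjusted p = 0.00369).

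Of 10 other receptor and co-receptor genes 0 rose, 2 fell and 8 were not called (median 0.11), beside 6.94% of all genes called lower; with so few genes the count is a description. Tgfbr3, whose product betaglycan presents TGF-beta and inhibin to their receptors, fell by 2.27 ± 0.37, and Acvrl1, a further type 1 receptor gene, by 1.16 ± 0.15 (SE). Both were called in every leave-out. The type 2 receptor genes of TGF-beta and activin, Tgfbr2, Acvr2a and Acvr2b, were at 0.11 ± 0.13, 0.15 ± 0.15 and 0.36 ± 0.11 and not called (adjusted p = 0.739, 0.645 and 0.0863). Bambi, a pseudoreceptor gene, not called in the full set, was called without Torin1 3 (0.37, adjusted p = 0.0481) and with Torin1 2 and 3 as 1 sample (0.68, adjusted p = 0.0318).

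Among 13 other SMADs and SMAD partners 2 rose, 0 fell and 11 were not called (median 0.15), a share near the 12.1% of all genes called in either direction. Skil, a SMAD co-repressor gene, rose by 1.20 ± 0.08, and Pmepa1, whose product restrains receptor SMADs, by 1.40 ± 0.11 (SE), both in every leave-out. Smad2 and Smad5, the remaining receptor SMAD genes, were at 0.028 ± 0.067 and -0.089 ± 0.073, and the shared partner Smad4 at 0.10 ± 0.09 (SE). None of these 3 was called (adjusted p = 0.891, 0.574 and 0.607). Of 8 measured SMAD1/5/9 target genes, Id1 and Id4, inhibitors of basic helix-loop-helix factors, rose by 2.16 ± 0.20 and 1.28 ± 0.23, 0 fell and 6 were not called (median 0.24), where 5.13% of all genes were called higher. Both kept the call in every leave-out.

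**Figure D4:**
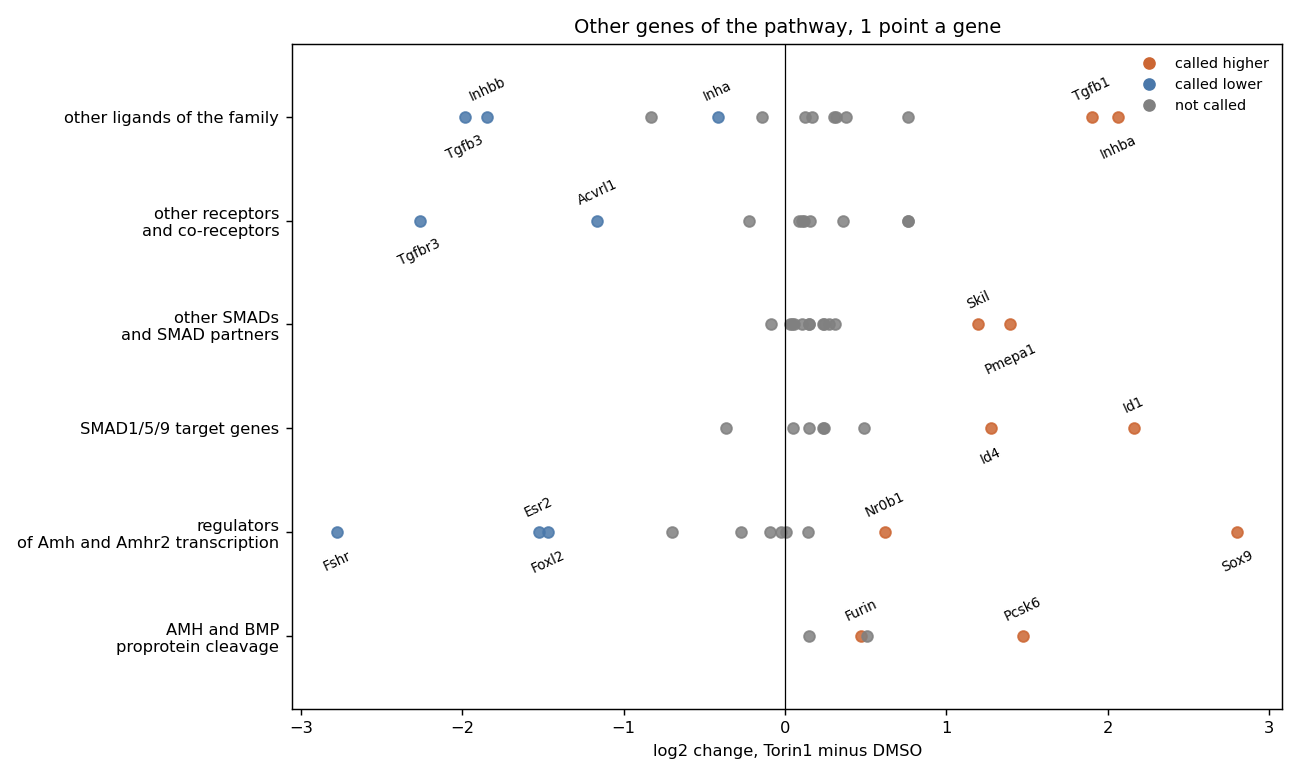
Log2 change, Torin1 minus DMSO, of the other genes of the pathway, with 1 row a list, 1 point a gene and called genes named; Smad6 and Smad7 stand in 2 rows. Changes run from Fshr at -2.78 to Sox9 at 2.80, and most points lie near 0 and are not called.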

How the data were processed

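RNA of 3 DMSO and 3 Torin1 samples, grouped by title, was amplified, biotin-labelled and hybridised to arrays, per the labels' protocols. The deposited table gives an intensity for each probe set on each array. The submitters' processing notes name GCOS, RMA and, from Affymetrix, Expression Console 1.1. RMA corrects background and scales arrays to each other, so a change is relative to other transcripts. The settings of RMA were not given in the sources used here. The values are linear, so log2(intensity + 1) was used, which understates changes of dim genes.

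Of 41345 probe sets 23521 named 1 gene, and 23328 of these matched RefSeq GRCm38.p6 by Entrez identifier. The brightest probe set per gene was kept. The 2 groups were compared over 22180 genes with limma 3.58.1 under R 4.3.3, using lmFit and eBayes without covariates and without a filter on dim genes, two-sided. The fit was tested on simulated data. In it, 50 genes were changed at each of several sizes among 22180. The fit recovered 26% of genes changed by 0.5 log2 units, 80% at 1.0, 96% at 2.0 and 100% at 3.0. It also called 13 unchanged genes. The share changed was smaller than the 12.1% of genes called in the data, so recovery in the data may differ. A gene not called may therefore still have changed by a small amount. The number of arrays limits the precision.

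The 10 genes and all lists were chosen with earlier results of these data known. Named genes are the 10, the called members of each list, Gdf9, Bmp15, Smad2, Smad4, Smad5, Tgfbr2, Acvr2a, Acvr2b and the 5 genes nearest to Amhr2 and to Amh. Nr5a1, Nr5a2, Gata4, Bmp2, Bambi, Gata6, Pcsk5 and the called marker genes were named after their values were seen. Settings varied were the pseudocount, dim-gene filter, scaling, probe set rule, variance trend, array weights, replicate block, Torin1 2 and 3 as 1 sample, and leaving out each sample.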

Additional observations from a re-analysis of the deposited data

How the results depend on the processing

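Amh, Amhr2 and Bmpr2 kept their direction and side of the threshold in all 15 alternatives, and Smad1 in 11, Acvr1 in 9, Smad3 in 8, Bmpr1b in 7, Tgfbr1 in 6 and Smad9 in 3; where the called ones among these 6 lost the call, the direction held. With a pseudocount of 16, 2 of the 10 genes were called higher and 2 lower, and Acvr1 (0.56), Bmpr1b (-0.56), Tgfbr1 (0.66) and Smad9 (-0.35) lost the call. Median centring left 2 called lower, without Bmpr1b (-0.57) and Smad9 (-0.46), and turned Bmpr1a to 0.015. Quantile normalization turned Bmpr1a to 0.036 and lost Smad9 (-0.42). Smad9 was also lost with an intensity trend (-0.48) and with array weights (-0.44), as was Tgfbr1 with the latter (0.60). With Torin1 2 and 3 as 1 sample, 2 were called higher, and Tgfbr1 (0.65), Smad3 (0.44) and Smad9 (-0.48) were lost. Why these calls moved was not tested. Median centring and quantile normalization moved the median change by 0.023 and -0.0024.

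Same-numbered samples did not deviate together (correlations of -0.207, -0.299 and -0.148). With 3 samples a group, such correlations cannot tell whether same-numbered samples shared mice, a day or a batch. With the replicate block, 657 genes in place of 1138 were called higher and 908 in place of 1540 lower; of the 10 genes 0 were called higher and 2 lower, with Acvr1 (0.73), Bmpr1b (-0.59), Tgfbr1 (0.75), Smad1 (0.45), Smad3 (0.48) and Smad9 (-0.48) not called. No sample correlated best with its own number.

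Leaving out 1 sample gave 655 to 1389 genes called higher, 844 to 1694 genes called lower, 0 to 2 of the 10 higher and 2 to 3 lower. Log2 changes ran from -1.35 to -1.02 for Amh, -4.36 to -3.46 for Amhr2, 0.086 to 0.18 for Bmpr2, 0.59 to 0.90 for Acvr1, -0.054 to 0.075 for Bmpr1a, -0.77 to -0.49 for Bmpr1b, 0.59 to 0.93 for Tgfbr1, 0.39 to 0.51 for Smad1, 0.41 to 0.57 for Smad3 and -0.59 to -0.36 for Smad9. Over all genes, the higher calls dropped most without DMSO 1, 2 or 3 or Torin1 2 (710, 655, 674 and 757), and the lower calls without DMSO 1 or 3 or Torin1 1 (1020, 844 and 1021). These fits use 5 samples and fewer degrees of freedom.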

Other observations

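Regulators of Amh and Amhr2 transcription moved in both directions. All 11 of the list were measured: 2 were called higher, 3 lower and 6 neither (5.13% and 6.94% of all genes were called higher and lower), and the median log2 change was -0.094. Sox9, which activates Amh in Sertoli cells, rose from 4.29 ± 0.34 to 7.09 ± 0.29 (SD, n = 3 each; change 2.80 ± 0.20, SE; adjusted p = 0.000395), while Amh was lower on the same arrays. Fshr, which encodes the receptor for follicle-stimulating hormone, fell by 2.78 ± 0.40 (SE). Esr2, an estrogen receptor gene, fell by 1.53 ± 0.13, and Foxl2, a granulosa transcription factor gene, fell by 1.47 ± 0.12 (SE). These 4 were called in every leave-out. Fshr, Esr2 and Foxl2 are also among the cumulus and granulosa markers above, so their falls are the same values given there. Nr0b1 rose by 0.62 ± 0.16 (adjusted p = 0.04995) and was called in the full set and without Torin1 3, but in no other leave-out (adjusted p up to 0.152). Its log2 means, 3.53 (DMSO) and 4.15 (Torin1), lay under the median gene, 4.17. Its call was also lost with a pseudocount of 16 (adjusted p = 0.108), median centring (0.0529), quantile normalization (0.06525) and the replicate block (0.0560). Gata4, which acts with NR5A1 on Amh, was at -0.025 ± 0.100 and not called (adjusted p = 0.941), and Gata6, not called in the full set, was called without Torin1 3 (-0.99, adjusted p = 0.0133) and with array weights (-0.88, adjusted p = 0.0379).

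AMH and BMPs are made as precursors that proprotein convertases cleave. Of 4 convertase genes 2 rose, 0 fell and 2 were not called, where 5.13% of all genes were called higher. With so few genes the count is a description. Furin rose from 8.48 ± 0.04 to 8.95 ± 0.07 and Pcsk6 from 5.37 ± 0.22 to 6.84 ± 0.08 (SD, n = 3 each), with changes of 0.47 ± 0.07 and 1.47 ± 0.12 (SE; adjusted p = 0.00742 and 0.000597). Both kept the call in every leave-out. Pcsk5, not called in the full set, was called without Torin1 3 (0.76, adjusted p = 0.00285), with array weights (0.63, adjusted p = 0.0323) and with Torin1 2 and 3 as 1 sample (0.55, adjusted p = 0.0195).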
